A study of Mus musculus with 12 samples.

Results

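Cholesterol synthesis and the SREBP2 pathway that sets it were followed in the livers of aged mice through 27 genes, chosen as a fixed list of names: 19 enzymes that carry acetyl units to cholesterol or to its isoprenoid side product, 5 proteins of the SREBP2 switch, and 3 proteins that move or esterify sterols. All 27 had a probe past the filter on dim signals, among the 18103 genes tested. They were read by 41 probes, 40 of them past the filter, of 55681 probes on the array, and the 27 probes that stood for the genes were well above background on all 12 arrays.

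RNA came from C3H/HeN males of the F2 generation, aged around 74 weeks, and each of the 12 samples was hybridised to its own 1-colour array. In the arsenite line the pregnant F0 grandmothers had drunk tap water with 85 ppm sodium arsenite on gestation days 8 to 18, and in the control line plain tap water; no F1 or F2 mouse of either line was given arsenite. The arrays form 4 groups of 3: control non-tumor liver, arsenite normal liver, arsenite non-tumor liver and arsenite tumor. The labels define neither normal against non-tumor liver nor the number of mice behind a sample. A p-value here therefore reflects how far the numbered samples of a group lie apart, which may be technical, and other tissues of the control line were not analysed here. Beside the labels, 6 of 6 liver tumor markers (Afp, Gpc3, H19, Golm1, Prom1 and Mki67) were higher in tumors than in each other group (adjusted p under 0.05, limma). These markers were listed with earlier results of these data known, so they are not an independent check of the labels.

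Cholesterol is built from acetyl-CoA by way of mevalonate, farnesyl diphosphate, squalene and lanosterol. SREBP2, the protein of Srebf2, is made as a membrane precursor; when sterols in the endoplasmic reticulum run low, SCAP escorts it to the Golgi apparatus, where the protease encoded by Mbtps1 makes the first cut. A second protease then frees the part that enters the nucleus and switches on most of the synthesis enzymes. INSIG proteins hold SCAP back when sterols are plentiful, and the liver, the main site of this regulation, also esterifies sterols and turns them into bile acids.

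The promoters of 4 enzymes are shown, those that differed most in size between tumors and arsenite non-tumor liver among the enzymes with a promoter in the table: Lss, Hmgcs1 and Cyp51 were higher in tumors and Acat2 was lower. Each is the 250 bases before the annotated start, on the gene's own strand, from the RefSeq table for GRCm38.p6. Hmgcs1 lies at chr13:119690101-119690350 (plus strand), Lss at chr10:76531355-76531604 (plus), Cyp51 at chr5:4104698-4104947 (minus) and Acat2 at chr17:12960726-12960975 (minus). Capitals mark matches, on either strand, to TCACNCCAC (the form of a sterol regulatory element that SREBP binds), CCAAT (the box bound by NF-Y), GGGCGG (a GC box) and CACGTG (an E-box).
Hmgcs1: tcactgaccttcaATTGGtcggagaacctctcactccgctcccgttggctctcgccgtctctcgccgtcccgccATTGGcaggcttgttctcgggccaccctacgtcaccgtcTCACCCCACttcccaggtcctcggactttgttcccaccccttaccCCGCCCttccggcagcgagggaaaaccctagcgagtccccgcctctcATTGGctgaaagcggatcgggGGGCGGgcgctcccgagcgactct
Lss: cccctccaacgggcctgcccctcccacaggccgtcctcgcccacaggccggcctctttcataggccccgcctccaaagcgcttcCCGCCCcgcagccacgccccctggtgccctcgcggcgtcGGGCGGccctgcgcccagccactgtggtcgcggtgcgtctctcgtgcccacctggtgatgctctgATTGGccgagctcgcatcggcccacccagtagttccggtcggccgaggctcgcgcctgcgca
Cyp51: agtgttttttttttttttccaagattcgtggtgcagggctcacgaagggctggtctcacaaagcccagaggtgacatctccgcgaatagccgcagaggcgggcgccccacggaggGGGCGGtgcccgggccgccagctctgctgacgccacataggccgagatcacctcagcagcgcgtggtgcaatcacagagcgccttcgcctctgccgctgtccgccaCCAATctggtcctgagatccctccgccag
Acat2: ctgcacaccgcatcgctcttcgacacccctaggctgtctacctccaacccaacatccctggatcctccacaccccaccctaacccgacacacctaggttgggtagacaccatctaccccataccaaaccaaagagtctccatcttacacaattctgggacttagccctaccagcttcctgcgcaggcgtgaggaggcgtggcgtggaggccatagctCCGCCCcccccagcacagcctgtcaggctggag
Of the 27 members, 22 had such a window; Sqle, Fdps, Fdft1, Stard4 and Soat2 had none there. TCACNCCAC was in that of Hmgcs1 alone, from 137 to 129 bases before the start, and in the windows of 1.22% of all 27025 genes in the table. CCAAT was in the windows of 19 of the 22 members and of 37.5% of all genes. Acat2, Scap and Mbtps1 were the members with a window that lacked it. The GC box was also in 19 of 22 (35.4% of all genes), Acat2 among them, and the E-box in 5 (6.86%). These are exact matches of letters in a window and show no binding. Elements that differ from these strings were not searched for, so a window without a match may still hold one.

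**Figure D1:**
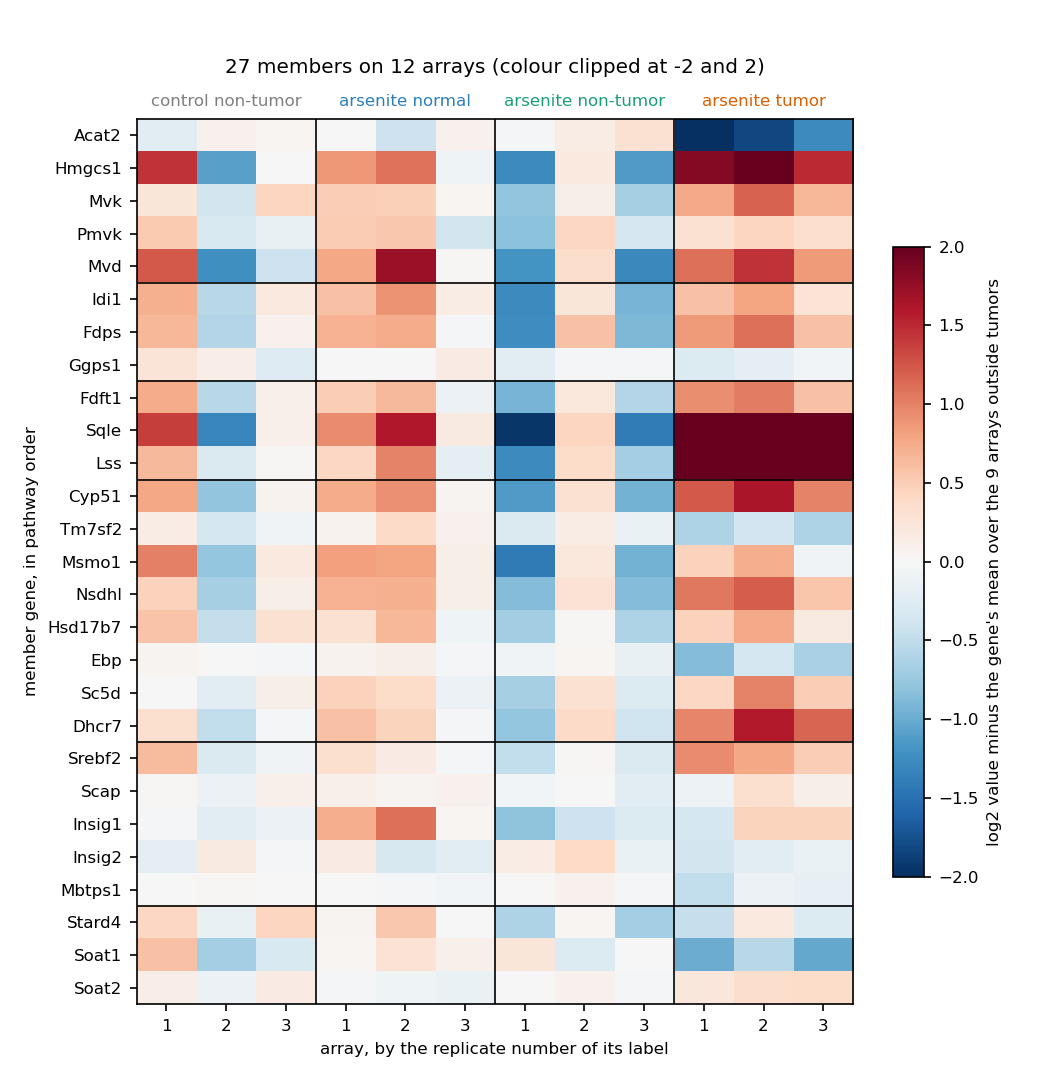
Each row is 1 of the 27 members in pathway order and each column 1 of the 12 arrays; colour gives the log2 value minus the gene's mean over the 9 arrays outside tumors, clipped at -2 and 2. Sqle and Lss are darkest red in tumors and Acat2 darkest blue, while outside tumors most enzymes are blue together on control array 2 and on arsenite non-tumor arrays 1 and 3.

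The first comparison asks how tumors differed from the non-tumor liver of the arsenite line. Most of the synthesis chain was higher in tumors, from HMG-CoA synthase (Hmgcs1, 5.86-fold) through squalene epoxidase (Sqle, 8.79-fold) and lanosterol synthase (Lss, 7.01-fold) to the last reductase (Dhcr7, 2.84-fold). The first enzyme of the list, the cytosolic thiolase Acat2, went the other way and was 4.25-fold lower. A gene was called when its p, adjusted by Benjamini-Hochberg over all 18103 genes in limma, was under 0.05; by this rule 15 of 27 members were higher, where 17.1% of all genes were, and 5 were lower, where 29.9% of all genes were. Among the 19 enzymes, 13 were higher and 3 lower. The median difference over the members was 0.89 on the log2 scale, over the enzymes 1.28 and over all genes -0.13.

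Values below are log2 of the processed signal minus the 75th percentile of the array, so 1 unit is a doubling, and each triple gives arrays 1, 2 and 3 of a group. Levels of different genes are not compared, because probes differ in brightness. Differences are given ± the standard error (SE) of the fit, with n = 3 arrays per group throughout.

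At the mevalonate steps, Hmgcs1, which makes HMG-CoA, read 4.14, 5.61 and 4.28 in arsenite non-tumor liver, 6.29, 6.50 and 5.33 in arsenite normal liver, 6.86, 4.33 and 5.43 in control non-tumor liver and 7.26, 7.53 and 6.90 in tumors. All 3 tumors lay above all 9 other arrays, although control array 1 came close. The tumor minus arsenite non-tumor difference was 2.55 ± 0.60 (adjusted p = 0.0055, limma). A second, dimmer probe of Hmgcs1, well above background on 3 arrays, gave 2.61. Mevalonate kinase (Mvk; its probe lies at chr5:114910540-114910599 in mm9, the build of all probe positions here) read 3.93, 4.83 and 4.06 in arsenite non-tumor liver against 5.48, 5.89 and 5.38 in tumors, a difference of 1.31 ± 0.27 (adjusted p = 0.0028, limma). Its groups did not overlap, and a second probe gave 1.32. Mevalonate diphosphate decarboxylase (Mvd) read 0.32, 1.87 and 0.22 against 2.62, 2.96 and 2.37. The 3 tumors were close together and above the non-tumor arrays (1.84 ± 0.65, adjusted p = 0.039, limma), but arsenite normal array 2, at 3.25, was above every tumor. Phosphomevalonate kinase (Pmvk) differed by 0.61 ± 0.34 and was not called.

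Acat2, which joins 2 molecules of acetyl-CoA in the cytosol (probe at chr17:13136482-13136541), read 6.44, 6.61 and 6.78 in arsenite non-tumor liver, 6.46, 6.06 and 6.55 in arsenite normal liver and 6.26, 6.55 and 6.51 in control non-tumor liver. In tumors it read 3.72, 4.65 and 5.19. Outside tumors its 9 values spanned 0.72 log2 units, and every tumor lay below all of them. The difference from arsenite non-tumor liver was -2.09 ± 0.30 (adjusted p = 0.00028, limma).

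At the isoprenoid steps 2 of 3 enzymes were called. Isopentenyl diphosphate isomerase (Idi1) was higher in tumors by 1.20 ± 0.41 (adjusted p = 0.033, limma) and farnesyl diphosphate synthase (Fdps) by 1.36 ± 0.46 (adjusted p = 0.032, limma). For both, tumors overlapped the livers of other groups: Idi1 read 5.92, 6.12 and 5.62 in tumors and up to 6.23 in arsenite normal liver, and Fdps read 7.62, 7.88 and 7.37 in tumors and up to 7.52 there. Ggps1, which makes the geranylgeranyl group used to anchor small GTPases, leaves the sterol route here; it differed by -0.07 ± 0.13 and was not called.

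The steps from farnesyl diphosphate to lanosterol held the largest differences, those of Sqle and Lss. Squalene synthase (Fdft1) was higher by 1.28 ± 0.36 (adjusted p = 0.014, limma). Sqle, which oxidises squalene (probe at chr15:59162688-59162747), read 2.18, 4.55 and 2.74 in arsenite non-tumor liver, 5.07, 5.74 and 4.32 in arsenite normal liver, 5.51, 2.83 and 4.24 in control non-tumor liver and 6.16, 6.56 and 6.16 in tumors. The tumors spanned 0.40 units, against 1.42 to 2.68 within each other group. The tumor minus arsenite non-tumor difference was 3.14 ± 0.71 (adjusted p = 0.0045, limma). Lss, which closes the ring system (probe at chr10:76015992-76016051), read 0.14, 1.79 and 0.74 in arsenite non-tumor liver, 1.84, 2.42 and 1.22 in arsenite normal liver, 2.07, 1.13 and 1.45 in control non-tumor liver and 3.46, 4.23 and 3.42 in tumors. Of the enzymes it had the clearest gap, with about 1 unit between the highest liver outside tumors and the lowest tumor, and the difference was 2.81 ± 0.44 (adjusted p = 0.00049, limma).

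Between lanosterol and cholesterol the enzymes split. Cyp51, the lanosterol demethylase, read -0.14, 1.29 and 0.04 in arsenite non-tumor liver and 2.22, 2.62 and 1.98 in tumors, a difference of 1.88 ± 0.45 (adjusted p = 0.0062, limma). Dhcr7 read 1.89, 3.03 and 2.27 against 3.64, 4.24 and 3.82 and was higher by 1.5 ± 0.31 (adjusted p = 0.0025, limma). For both genes all tumors lay above all 9 other arrays. Nsdhl, which removes the carboxyl groups left at carbon 4, was higher by 1.42 ± 0.37, the sterol ketone reductase Hsd17b7 by 0.89 ± 0.30 and the desaturase Sc5d by 0.84 ± 0.25. One of the 3 probes of Hsd17b7 disagreed and gave -0.14. Msmo1, the C4 methyl oxidase, differed by 1.09 ± 0.49 and was not called (adjusted p = 0.093, limma).

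Tm7sf2, a sterol C14 reductase, and Ebp, the isomerase that moves the ring double bond, were lower in tumors. Ebp read 8.18, 8.29 and 8.11 in arsenite non-tumor liver and 7.39, 7.90 and 7.6 in tumors, below all 9 other arrays, which spanned 8.11 to 8.38. Its difference was -0.56 ± 0.12 (adjusted p = 0.0036, limma). Tm7sf2 read 6.66, 7.10 and 6.81 against 6.33, 6.57 and 6.33, a difference of -0.45 ± 0.16 (adjusted p = 0.039, limma). The gap between the groups was under 0.1 units, and a second probe gave -0.52.

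Of the SREBP2 switch, 1 of 5 members was higher, where 17.1% of all genes were, and 1 was lower, where 29.9% were. These counts are near those shares. Srebf2 itself (probe at chr15:82034765-82034824) read -0.39, 0.13 and -0.18 in arsenite non-tumor liver, 0.42, 0.27 and 0.09 in arsenite normal liver, 0.74, -0.18 and 0.04 in control non-tumor liver and 1.06, 0.88 and 0.60 in tumors. The difference from arsenite non-tumor liver was 0.99 ± 0.23, a 1.99-fold change (adjusted p = 0.005, limma), and a second probe gave 0.64. Scap differed by 0.20 ± 0.12 and was not called, but it was called higher after quantile normalisation (0.47, adjusted p = 0.0035), with the percentile over probes detected on all arrays (0.36, adjusted p = 0.016) and with normexp background correction (0.35, adjusted p = 0.016), all limma values. Insig1, itself a target of SREBP2 in the liver, read 2.57, 2.94 and 3.09 in arsenite non-tumor liver against 3.01, 3.81 and 3.81 in tumors; 1 tumor fell inside the non-tumor range, and the difference of 0.68 ± 0.28 was not called (adjusted p = 0.072, limma). Insig2 differed by -0.38 ± 0.17 and was not called. Mbtps1 was lower by a small step, -0.28 ± 0.10 (adjusted p = 0.043, limma), from 4.89, 4.95 and 4.84 to 4.38, 4.76 and 4.71.

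The 2 enzymes that esterify sterols went apart. Soat1 read -1.89, -2.40 and -2.14 in arsenite non-tumor liver and -3.13, -2.69 and -3.16 in tumors (-0.85 ± 0.28, adjusted p = 0.029, limma). Its tumor values lay close to the dimmest signals well above background on those arrays (-3.44, -3.39 and -3.52), and with normexp background correction the difference was -0.46 (adjusted p = 0.0055, limma). Soat2, the form most prominent in hepatocytes, read 3.55, 3.63 and 3.53 against 3.77, 3.91 and 3.92 (0.30 ± 0.10, adjusted p = 0.027, limma). Its change was small, but the spread within groups was smaller still. The sterol carrier Stard4 differed by 0.24 ± 0.26 and was not called.

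How far these calls held varied by gene. Over 18 other settings each, among them other scalings and each sample left out in turn, Hmgcs1, Mvk, Sqle, Lss, Cyp51, Nsdhl, Dhcr7, Srebf2, Acat2 and Ebp were called in all 18. Leaving out arsenite non-tumor array 1 left 8 members called higher, and leaving out arsenite non-tumor array 3 or tumor 2 left 9. Fdft1 was lost without arsenite non-tumor array 1 (1.03, adjusted p = 0.056). Fdps, Idi1 and Hsd17b7 were each lost without arsenite non-tumor array 1 or 3 or tumor 1 or 2, with adjusted p from 0.068 to 0.12, Mvd without any of those or tumor 3 (0.059 to 0.12), and Sc5d without arsenite non-tumor array 1 or 3 or tumor 2 (0.052 to 0.075). Soat1 was lost without arsenite non-tumor array 1 or 3 or tumor 1 or 3 (0.065 to 0.096) and Soat2 without arsenite non-tumor array 1 or 3 or tumor 2 or 3 (0.072 to 0.078). With no filter Fdps, Idi1, Hsd17b7, Mvd and Soat2 lost the higher call (adjusted p from 0.06 to 0.069, limma) and Soat1 the lower (0.057). In the fit of the 6 arrays compared Fdps, Idi1 and Sc5d were not called (0.054 to 0.062). Hsd17b7 was not called with the mean of its probes (0.55, adjusted p = 0.14, limma), nor were Hsd17b7 and Mvd with array weights (0.055 and 0.054). The lower calls of Tm7sf2 and Mbtps1 were lost under all 3 other scalings, with adjusted p up to 0.4 and 0.76 in limma. Both were lost too with no filter (0.073 and 0.084) and in the fit of the 6 arrays compared (0.053 and 0.13). The same held with array weights (0.08 and 0.056) and normexp background correction (0.093 and 0.065). With the mean of its probes Mbtps1 was not called either (0.25). Tm7sf2 was also lost without arsenite non-tumor array 2 or 3 or tumor 1 or 3 (0.068 to 0.14), and Mbtps1 without any arsenite non-tumor array or tumor 1 (0.06 to 0.12). With the percentile taken over probes detected on all arrays, Soat1 was not called either (-0.69, adjusted p = 0.08). Without arsenite non-tumor array 2, Msmo1 (1.55, adjusted p = 0.025) and Pmvk (0.94, adjusted p = 0.039) were called, and without tumor 1 Insig1 (0.94, adjusted p = 0.019) and Scap (0.31, adjusted p = 0.042) were, all limma values. Insig2 was called lower without arsenite non-tumor array 3 (-0.52, adjusted p = 0.036). Under other scalings Insig1 was called after quantile normalisation (0.83, adjusted p = 0.034) and with the percentile over detected probes (0.84, adjusted p = 0.033), and Msmo1 after quantile normalisation (1.36, adjusted p = 0.043).

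Equal sample numbers deviated together in tumors and arsenite non-tumor liver, so the fit was repeated with the number as a block. On the 6 arrays compared, the block gave 15 members higher and 4 lower. Insig1 was then called (0.68 ± 0.12, adjusted p = 0.022, limma), while Soat2 (adjusted p = 0.076) and Mbtps1 (adjusted p = 0.14) were not. In the block fit of all 12 arrays, 15 were higher and 3 lower, with Mbtps1 (adjusted p = 0.057) and Tm7sf2 (adjusted p = 0.055) no longer called.

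**Figure D2:**
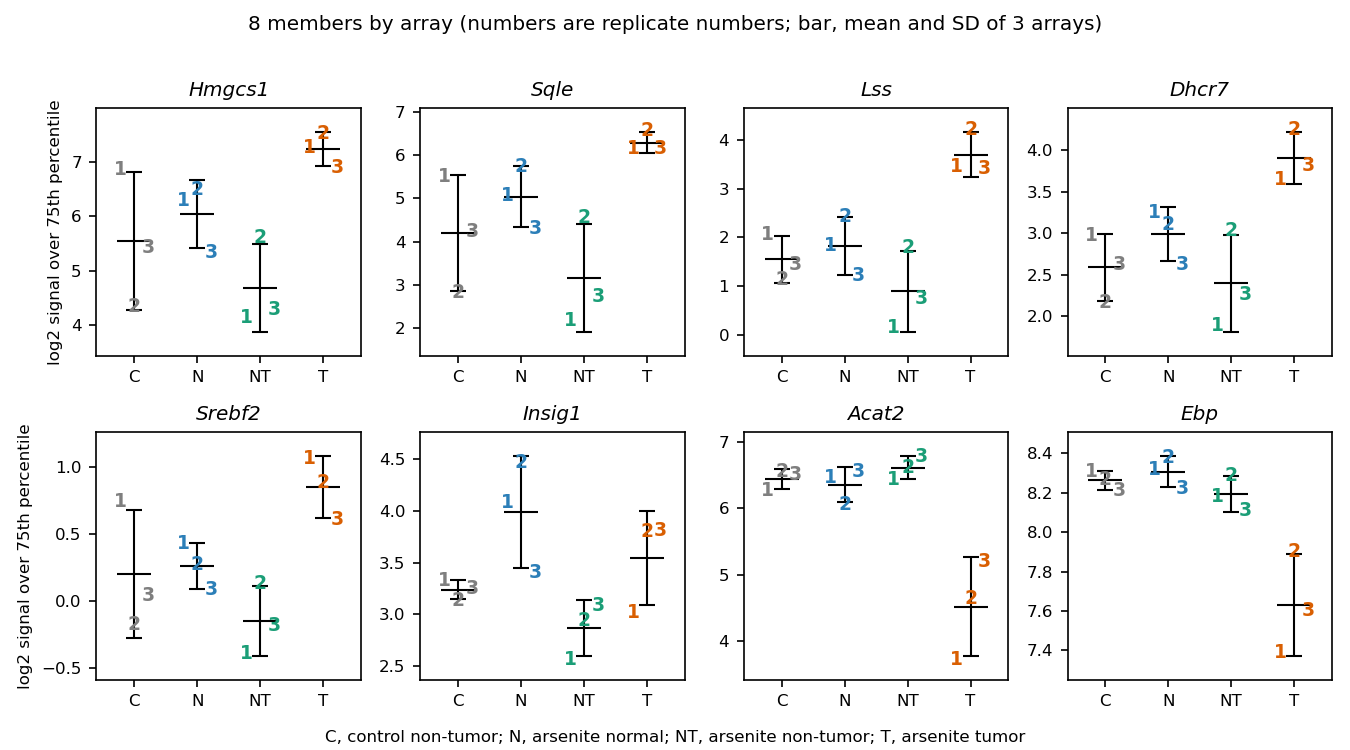
The log2 signal over the array's 75th percentile is plotted for 8 members in the 4 groups, each numeral being an array by its replicate number, with the mean and SD of 3 arrays as bars. Hmgcs1, Sqle, Lss and Dhcr7 lie highest in tumors with less scatter than in most other groups, Acat2 and Ebp lie lowest there, and Insig1 is highest on arsenite normal arrays 1 and 2.

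Tumors were also compared with arsenite normal liver, which lacks the label of non-tumor tissue. The same 3 tumors enter all tumor comparisons, so the comparisons are not independent. Against normal liver only a few members were called: 3 of 27 were higher, where 17.1% of all genes were, and 4 were lower, where 30.9% were. Those higher were Lss (1.87 ± 0.44, adjusted p = 0.0058), Dhcr7 (0.91 ± 0.31, adjusted p = 0.033) and Soat2 (0.40 ± 0.10, adjusted p = 0.0064), and those lower were Acat2 (-1.84 ± 0.30, adjusted p = 0.00065), Tm7sf2 (-0.72 ± 0.16, adjusted p = 0.0037), Ebp (-0.67 ± 0.12, adjusted p = 0.0012) and Soat1 (-1.0 ± 0.28, adjusted p = 0.013), all in limma. Hmgcs1 (1.19 ± 0.60) and Sqle (1.25 ± 0.71) had tumors above every normal liver, but the differences were not called in the fit of 12 arrays. In a fit of the 6 arrays compared, both were called (adjusted p = 0.032 and 0.034, limma), and Hmgcs1 was also called with the mean of its probes (1.73, adjusted p = 0.011, limma). That mean takes in the dimmer second probe, well above background on only 3 arrays. Its own difference was 2.28, from a mean of -4.69 in normal liver. Idi1 differed by 0.01 ± 0.41, Mvd by 0.29 ± 0.65, Msmo1 by -0.20 ± 0.49 and Insig1 by -0.44 ± 0.28; none was called in the fit of 12 arrays. The median over the members was 0.17, against -0.15 over all genes.

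Some of these calls depended on single choices. Dhcr7 was not called without normal array 2 or 3 or tumor 2 or 3, with adjusted p from 0.057 to 0.12, and Soat2 was not called in the block fit of the 6 arrays (adjusted p = 0.06). In the other direction, Srebf2 (0.59 ± 0.23, adjusted p = 0.058, limma) was called under 9 of 18 settings, such as without tumor 3 (0.71, adjusted p = 0.048). A second, dimmer probe of Srebf2, well above background on 11 arrays, gave -0.03. Insig1 was called lower without normal array 3 (-0.74, adjusted p = 0.045), and Mbtps1 without tumor 2 (-0.30, adjusted p = 0.047). Lss, Acat2, Ebp, Tm7sf2 and Soat1 were called under all 18.

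Against control non-tumor liver, tumors of the arsenite line stood between these results. Higher were 8 of 27 members, where 16.8% of all genes were, and lower were 4, where 32.2% were. Sqle (2.10 ± 0.71, adjusted p = 0.032), Lss (2.15 ± 0.44, adjusted p = 0.0025), Hmgcs1 (1.69 ± 0.60, adjusted p = 0.039), Dhcr7 (1.31 ± 0.31, adjusted p = 0.0054), Cyp51 (1.27 ± 0.45, adjusted p = 0.039), Mvk (0.76 ± 0.27, adjusted p = 0.04), Srebf2 (0.65 ± 0.23, adjusted p = 0.04) and Soat2 (0.26 ± 0.10, adjusted p = 0.045) were higher in limma. Acat2 (-1.92 ± 0.30, adjusted p = 0.00047), Ebp (-0.63 ± 0.12, adjusted p = 0.0017), Tm7sf2 (-0.44 ± 0.16, adjusted p = 0.04) and Mbtps1 (-0.27 ± 0.10, adjusted p = 0.048) were lower. Here tumor tissue and the exposure of the line differ at once, and their parts cannot be told apart.

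The count changed with single arrays of both groups. Without control array 2, the control array with the lowest enzyme levels, 2 members were called higher, and the values of Sqle and Hmgcs1 fell to 1.42 (adjusted p = 0.12) and 1.08 (adjusted p = 0.14). Without tumor 2 it was also 2, without tumor 1 it was 3 and without control array 3 it was 4. The lower count was 2 without control array 1 or tumor 1. Without control array 1, by contrast, Fdft1 (1.07, adjusted p = 0.033), Mvd (1.95, adjusted p = 0.022) and Nsdhl (1.21, adjusted p = 0.032) were called, and Soat1 was called lower without control array 2 (-0.99, adjusted p = 0.014) or tumor 2 (-0.88, adjusted p = 0.046). Lss, Dhcr7, Acat2 and Ebp were called under all 18 settings.

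**Figure D3:**
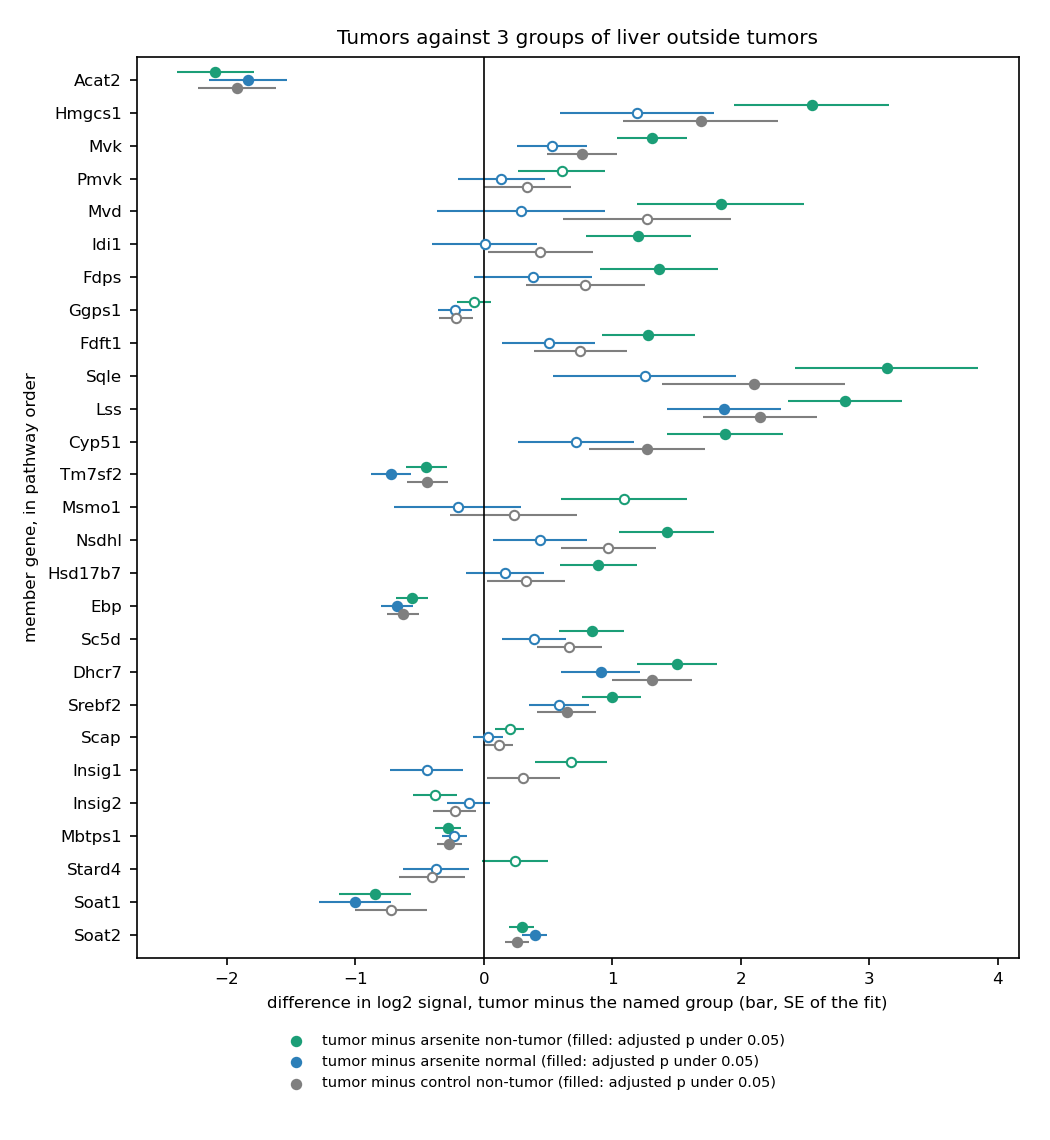
Points give the difference in log2 signal of tumors minus arsenite non-tumor liver, arsenite normal liver and control non-tumor liver for each of the 27 members, with the SE of the fit as bars; filled points have an adjusted p under 0.05. The points for Acat2, Tm7sf2 and Ebp lie left of 0 and those for Lss, Dhcr7 and Soat2 right of 0, all filled, whereas most other enzymes shift left when normal liver is the reference.

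Set against the 9 livers outside tumors one by one, 7 of 27 members had all 3 tumors above all 9, where 15.2% of all genes did: Hmgcs1, Mvk, Sqle, Lss, Cyp51, Dhcr7 and Soat2. Another 4 had all tumors below all 9, where 28% of all genes did: Acat2, Tm7sf2, Ebp and Mbtps1. The other 16 overlapped. The choice of scaling moves such counts for the array as a whole. With the 75th percentile main scaling, 36.3% of calls between tumors and arsenite non-tumor liver were higher, against 47.1% after quantile normalisation and 53.6% when the percentile was taken over probes detected on all arrays. The median over all genes moved from -0.13 to 0.03 under the latter.

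The livers outside tumors differed from one another in a common way, which is the widest pattern in these genes apart from tumors. Taking for each array the median over the 19 enzymes of the log2 value minus the gene's mean over the 9 arrays outside tumors, control non-tumor liver gave 0.57, -0.49 and 0.07, arsenite normal liver 0.51, 0.67 and 0.02, and arsenite non-tumor liver -0.87, 0.24 and -0.66. Tumors gave 0.76, 1.02 and 0.56. The same median over all genes stayed between -0.04 and 0.04 outside tumors. On arsenite non-tumor array 1 no enzyme of 19 was above its own mean and on array 3 only 1 was, while on array 2 of that group 18 were.

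**Figure D4:**
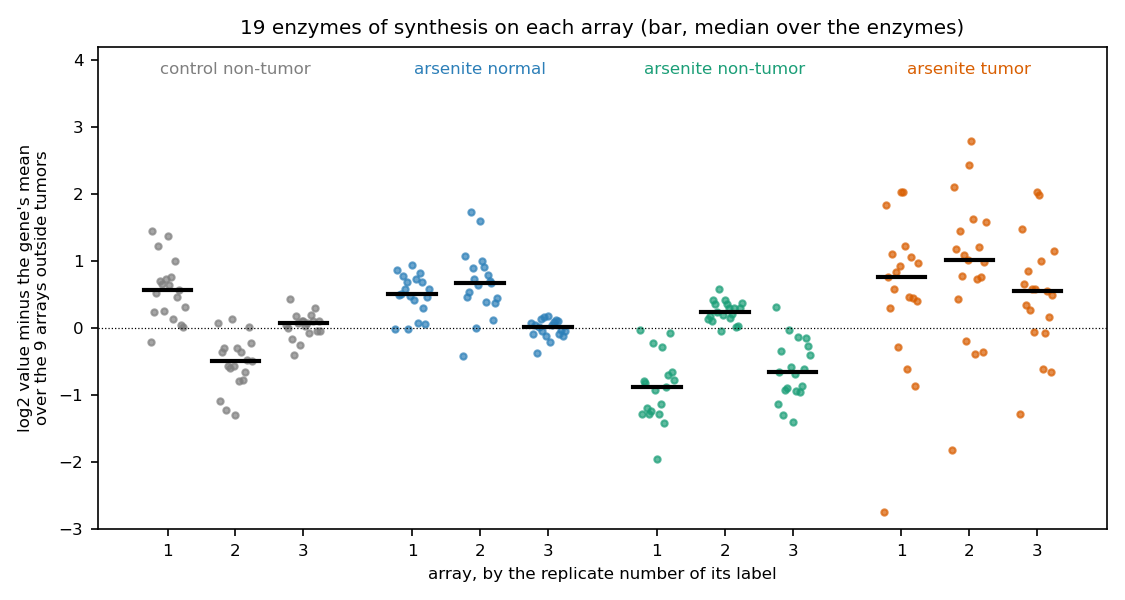
Each point is 1 of the 19 synthesis enzymes on 1 array, as log2 value minus the gene's mean over the 9 arrays outside tumors, and the bar is the median over the enzymes. The bars run from -0.87 on arsenite non-tumor array 1 to 0.67 on arsenite normal array 2 outside tumors, and from 0.56 to 1.02 in tumors, where the lowest point of each array is Acat2.

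The enzymes kept 1 order of arrays within a group. In control non-tumor liver array 2 was lowest, 3 in the middle and 1 highest for 14 of 19 enzymes, an order shared by 14.9% of all genes. In arsenite non-tumor liver the order 1, 3, 2 held for 15 of 19 (17.6% of all genes), and in arsenite normal liver the order 3, 1, 2 held for 12 of 19 (13.6%). Tumors had the order 3, 1, 2 for 12 of 19 (14.9%). Each order is the one most enzymes followed, so it describes the group and tests nothing.

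The spread followed. The median SD of an enzyme was 0.54 in control non-tumor liver, 0.38 in arsenite normal liver, 0.62 in arsenite non-tumor liver and 0.29 in tumors. Over all genes it was 0.16, 0.14, 0.15 and 0.18. For 17 of 19 enzymes (89.5%) the SD among tumors was below the mean SD of the other groups, which held for 44.7% of all genes. Within groups, Sqle spanned 2.68 units in control non-tumor liver, 1.42 in arsenite normal liver, 2.37 in arsenite non-tumor liver and 0.40 in tumors.

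Not every member joined. Over the 9 arrays outside tumors the log2 value correlated with the mean deviation of the enzymes at Pearson r = 0.997 for Cyp51, 0.995 for Sqle and 0.992 for Fdft1, which are part of that mean, and at 0.906 for Srebf2 and 0.87 for Stard4, which are not. Insig1 gave 0.751 and Scap 0.703. Acat2 ran the other way at -0.606, although it is counted in the mean, and Mbtps1 (-0.069), Insig2 (-0.271), Soat2 (0.236), Ggps1 (0.356) and Soat1 (0.362) did not follow closely. These are descriptions over 9 arrays that share 3 groups and 2 slides.

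By the same measure, the genes outside the list most like the enzymes were Usp1, a deubiquitinase (r = 0.976), Matk, a tyrosine kinase (0.97), Thrsp, a factor of lipogenesis that is also on the SREBP1 list (0.965), Rdh11, a retinol dehydrogenase (0.959), and Pstpip2, a cytoskeletal adaptor (0.956), together with 4 probes without a gene symbol (0.974 to 0.99). In tumors they parted. Rdh11 was higher than in arsenite non-tumor liver by 1.07 ± 0.38 (adjusted p = 0.04, limma) and Usp1 by 0.45 ± 0.12 (adjusted p = 0.011, limma). Thrsp read 3.67, 6.37 and 4.21 in arsenite non-tumor liver, 6.58, 7.38 and 5.93 in arsenite normal liver and 3.89, 4.22 and 4.0 in tumors, and was lower in tumors than in normal liver by -2.59 ± 0.64 (adjusted p = 0.0071, limma). Against arsenite non-tumor liver Thrsp differed by -0.71 ± 0.64 and was not called. Against normal liver Rdh11 (0.56 ± 0.38), Usp1 (0.19 ± 0.12) and the 4 probes without a symbol were not called. Pstpip2 and Matk were called in neither comparison.

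Arsenite non-tumor liver was then compared with arsenite normal liver, that is, 2 kinds of liver outside tumors within 1 line. The non-tumor arrays are those of the first tumor comparison, so the results share them. No member was called, and 0% of all genes were (0 of 18103). Of the 27 members, 23 were lower in non-tumor liver, with a median of -0.61 against 0.00 over all genes. At an unadjusted p under 0.05 (limma), 11 were lower, where 4.09% of all genes were. No member was higher at that threshold, where 2.73% of all genes were. Most enzymes moved together from array to array, so such counts, here and in the next comparisons, are not independent observations. The 11 were Hmgcs1 (-1.36 ± 0.60), Mvk (-0.78 ± 0.27), Mvd (-1.55 ± 0.65), Idi1 (-1.20 ± 0.41), Sqle (-1.88 ± 0.71), Cyp51 (-1.16 ± 0.45), Msmo1 (-1.30 ± 0.49), Nsdhl (-0.99 ± 0.37), Hsd17b7 (-0.73 ± 0.30), Insig1 (-1.12 ± 0.28) and Stard4 (-0.61 ± 0.26). The smallest adjusted p was 0.47, for Insig1.

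Insig1 read 2.57, 2.94 and 3.09 in non-tumor liver and 4.09, 4.47 and 3.41 in normal liver, without overlap. Of the 27 members, 3 had non-tumor liver wholly below normal liver (Insig1, Scap and Ggps1), where 7.32% of all genes did, and 1 wholly above it (Soat2), where 7.88% did. Without arsenite non-tumor array 2 the median over the members was -0.91, and over all samples left out in turn it ran from -0.91 to -0.51. These groups lay on different slides, whose part cannot be told apart from theirs.

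Genes with a daily rhythm were read beside these values. Of 10 clock genes tested, none was called; 7 were lower in non-tumor liver and 3 higher, 4 lower and 2 higher without overlap, with a median of -0.44. Dbp, a strongly rhythmic transcription factor chosen here after its values were seen, read 2.27, 2.81 and 3.33 in arsenite non-tumor liver and 5.01, 5.67 and 5.43 in arsenite normal liver. In control non-tumor liver it read 5.85, 0.64 and 5.37, so that control array 2, lowest for the enzymes, was also lowest for Dbp. The median over the clock genes, taken per array as for the enzymes, was 0.38, -0.48 and 0.09 in control non-tumor liver. In arsenite non-tumor liver it was -0.21, -0.04 and -0.18, and in both groups the arrays had the same order as for the enzymes. In arsenite normal liver it was 0.10, 0.14 and 0.28, so that array 3, lowest for the enzymes, was highest. Dbp alone was highest on array 3 in arsenite non-tumor liver, where the enzymes were highest on array 2. The 16 genes of SREBP1 and fatty acid synthesis had a median of -0.37 between the same groups, and 14 of 16 were lower. Fatty acid synthase (Fasn), also chosen after its values were seen, read 0.40, 2.38 and 1.08 in non-tumor liver and 2.45, 3.24 and 1.79 in normal liver. The 11 genes of the fasting response had a median of 0.25, and 8 of 11 were higher. The hour of collection and the feeding state are not given in the sources used here, and the part of these gene groups in the result was not tested.

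Arsenite and control non-tumor liver, the only comparison of the lines in like tissue and the only one within a slide, gave 0 of 27 members, where 0.00552% of all genes (1 gene) were called. The median over the members was -0.37, and 22 of 27 were lower in the arsenite line. At an unadjusted p under 0.05 only Stard4 was lower (-0.65 ± 0.26), where 4.12% of all genes were lower and 1.5% higher. Sqle differed by -1.04 ± 0.71 and Hmgcs1 by -0.86 ± 0.60. Leaving out a sample in turn moved the median from -0.60 to -0.15.

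Arsenite normal liver against control non-tumor liver likewise gave no called member and 0% of all genes. The median was 0.27, and 22 of 27 members were higher in arsenite normal liver. Insig1 was higher at an unadjusted p of 0.024 (0.75 ± 0.28, adjusted p = 0.7, limma), reading 4.09, 4.47 and 3.41 against 3.32, 3.14 and 3.25. In all, 2.67% of genes were higher and 3.84% lower at that threshold. A difference of the size seen for Sqle, 0.85 ± 0.71, could not be told from the spread with 3 arrays a group.

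The genes around the pathway were read from lists fixed by role. Sterol oxidation and bile acid synthesis fell in tumors. Against arsenite non-tumor liver 6 of 7 tested genes were lower and 1 higher, where 29.9% and 17.1% of all genes were. Cyp8b1, which makes the cholic acid form, was lower by -5.52 ± 0.50 (adjusted p = 1.3e-05, limma), Akr1d1, the steroid reductase of the pathway, by -2.36 ± 0.12 (adjusted p = 3.2e-07) and Hsd3b7 by -1.41 ± 0.15 (adjusted p = 3e-05). Cyp39a1, an oxysterol hydroxylase, was the exception: it read 0.53, 1.32 and 1.89 in arsenite non-tumor liver and 4.34, 5.12 and 4.80 in tumors (3.51 ± 0.42, adjusted p = 7.9e-05, limma). Between arsenite non-tumor and normal liver none of the 7 was called, with 4 higher, 3 lower and a median of 0.03.

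Proteins that serve the synthesis enzymes were called in both directions. Of 8 electron donors and accessory proteins, 3 were lower in tumors than in arsenite non-tumor liver and 1 was higher. Of all genes 29.9% were lower and 17.1% higher, so these counts are not far from the shares of the array. Pgrmc1, a membrane partner of cytochromes P450, was lower by -1.30 ± 0.08 (adjusted p = 1.1e-06, limma), and the cytochromes b5 Cyb5a and Cyb5b by -1.26 ± 0.13 and -0.86 ± 0.14. Lbr, the other sterol C14 reductase beside Tm7sf2, was higher by 0.71 ± 0.21 (adjusted p = 0.019, limma). Of the 10 genes tested on the isoprenoid branches, 4 were lower and none higher, beside the same shares of all genes. Icmt and Rabggta, which act in prenylation, were lower by -1.09 ± 0.15 and -0.94 ± 0.15, and Pdss2, which acts in ubiquinone synthesis, by -0.78 ± 0.17. With the percentile over probes detected on all arrays, 2 genes of these branches were higher and 4 lower.

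Among 21 genes of sterol sensing, uptake, trafficking and efflux, 5 were higher and 5 lower (6 and 3 after quantile normalisation). These counts are near the 17.1% of all genes that were higher and the 29.9% that were lower. Scarb1, the receptor for high-density lipoprotein, was higher by 0.96 ± 0.15 (adjusted p = 0.00038, limma) and the lysosomal carrier Npc2 by 0.74 ± 0.13. Mylip, a ubiquitin ligase that removes lipoprotein receptors, was lower by -0.78 ± 0.12. Of 16 genes of the sister pathway, SREBP1 and fatty acid synthesis, 5 were higher and 2 lower, beside the same shares of all genes. The desaturases Fads2 and Fads1 were higher by 1.68 ± 0.14 and 1.31 ± 0.15, whereas Me1 and Srebf1 itself were lower by -1.66 ± 0.27 and -1.23 ± 0.24. Srebf1 read 2.98, 3.02 and 2.61 in arsenite non-tumor liver and 1.79, 1.54 and 1.60 in tumors, while Srebf2 was higher there.

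Markers of other cell types differed in the tumor comparisons. The counts of calls below are against arsenite non-tumor liver, where 29.9% of all genes were lower and 17.1% higher. With so few markers, the endothelial and hepatocyte counts are near those shares. The summed signal of 7 Kupffer cell and macrophage markers, in units of the array's 75th percentile, was 39.0 to 74.4 in tumors and 92.9 to 158.9 outside them, and 5 of 7 were called lower against arsenite non-tumor liver. That of 6 stellate cell and fibroblast markers was 17.2 to 22.9 against 60.0 to 83.0 (4 lower, 1 higher), and that of 6 endothelial markers 55.0 to 75 against 85.1 to 113.4 (2 lower, 1 higher). The 5 hepatocyte markers summed to 3476 to 4215 in tumors and 4243 to 5337 outside, with 2 of 5 lower. After quantile normalisation 1 hepatocyte marker was higher and 1 lower, and with the percentile over probes detected on all arrays 2 stellate markers were higher and 2 lower. None of the 3 adipocyte markers passed the filter on dim signals, and 2 each of the bile duct, T and NK cell, and B and plasma cell markers did. The B and plasma cell markers summed to 2.0 to 4.42 in tumors and to at most 1.93 outside, and 1 of the 2, the immunoglobulin joining chain Jchain, was higher in tumors than in arsenite non-tumor liver (1.32 ± 0.40, adjusted p = 0.02, limma). Of the 11 fasting response genes 2 were higher and 5 lower in tumors than in arsenite non-tumor liver, and of the 10 clock genes tested 3 were lower, a share like the 29.9% of all genes, and none higher. In bulk tissue fewer cells of a type and less RNA per cell cannot be told apart, and the part of these shifts in the members' differences was not tested. Tumors lay on a slide of their own, so in every tumor comparison the slide cannot be told apart from the tissue.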

How the data were processed

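The deposited scanner files give, per the file headers, a processed signal per spot, a background-subtracted intensity not scaled between arrays, from 12 Agilent 1-colour arrays of 59305 spots outside controls. Per the labels, the authors labelled 100 ng of RNA with Cy3. The headers name Feature Extraction 10.7.3.1, and the submitters' processing notes 12.0.3.1. The authors' deposited value table holds a linear ratio, found by comparison to equal that signal over the 75th percentile of all spots of its array, and served as an alternative.

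Values are log2 of the processed signal, with the 75th percentile of each array's spots outside controls set to 0. Repeat spots were averaged, leaving out those marked as outliers. Probes had to be well above background throughout at least 1 group, on its 3 arrays (24148 probes), and for the 4506 genes with several kept probes the one brightest on average was used. Probes were named by accession in the RefSeq table (27325), by symbol (3523) or synonym (551), or as in the file (24282); Msmo1 was matched by accession. One limma 3.58.1 fit (R 4.3.3, 2-sided moderated test) of 12 arrays with a mean per group gave each difference and SE, with p adjusted by Benjamini-Hochberg over 18103 genes. It pools the spread over groups, tumors included. The method was tested on simulated data. The precision is limited by the number of arrays, 3 per group; no spot was saturated (0 of each array's spots). Tables and figures were made in Python 3.11.15 (numpy 2.4.6, pandas 2.3.3, matplotlib 3.10.9, with scipy 1.17.1).

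The members and lists were chosen with earlier results of these data known. All members are named; of each related list, up to 4 called genes per comparison by smallest adjusted p whose groups did not overlap; and the 10 genes most correlated with the enzymes outside tumors. A few genes named by this rule are left out.

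Residuals of equal sample numbers in tumors and arsenite non-tumor liver correlated at 0.134, 0.13 and 0.225, and of unequal numbers at -0.15 to -0.003. Residuals cancel out within a group, so positive values for equal numbers push those for unequal numbers below zero on average. The values for equal numbers met the rule for paired samples (over 0.1 for every pair), although the labels do not say that equal numbers share a mouse. No other comparison met it. Alternatives tried were the scaling, background correction, value table, filter, probe per gene, array weights, arrays in the fit, replicate block, a fold threshold and leaving out each sample.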

Additional observations from a re-analysis of the deposited data

How the results depend on the processing

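Single members in the 6 comparisons gave 162 results. Over all settings, 142 values lost a call with the same direction, 66 gained one, and none that was called in either fit changed sign; 54 changed sign with neither value called. In the comparisons without tumors no member was called under any setting. For tumors minus arsenite non-tumor liver, leaving out a sample gave 8 to 17 members higher and 2 to 5 lower (medians 0.74 to 1.12). The lower count was 3 after quantile normalisation, a common median of kept probes, normexp background, array weights, the replicate block in 12 arrays or a fit of the 6 arrays compared, 2 with the percentile over probes detected on all arrays or with no filter, and 1 at 2-fold or more. For tumors minus arsenite normal liver, leaving out a sample gave 2 to 3 higher and 4 to 5 lower (medians -0.03 to 0.35); 7 were higher after quantile normalisation, 6 in the 6 arrays compared, 9 with the replicate block in those 6, and 1 at 2-fold or more, where 2 were lower. For tumors minus control non-tumor liver, leaving out a sample gave 2 to 10 higher and 2 to 5 lower (medians 0.18 to 0.66); 3 were higher with no filter, 2 with the replicate block in 6 arrays and 5 at 2-fold or more. Lower were 2 with a common median, the percentile over detected probes, no filter, array weights, the 6 arrays compared or either replicate block, and 1 at 2-fold or more. Array weights moved that median from 0.34 to 0.74. Causes of these changes were not tested, apart from the 2-fold threshold, which can only remove calls. Beyond the members named in the report, the replicate block changed no call of tumors against arsenite non-tumor liver. Outside that comparison samples share only a number. There the block in 12 arrays lost the calls of Mvk (adjusted p = 0.058), Soat2 (0.072), Tm7sf2 (0.055) and Mbtps1 (0.062) against control non-tumor liver and changed no call against normal liver. Medians between groups outside tumors ran, leaving out a sample, from -0.91 to -0.51 (arsenite non-tumor minus normal), -0.60 to -0.15 (arsenite minus control non-tumor) and 0.04 to 0.45 (arsenite normal minus control non-tumor). A block by slide could not be fitted, since no group spans slides. All 27 members' signals were well above background on every array, though those of Soat1 in tumors lay close to the limit.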
